A study of Mus musculus with 6 samples.

Results

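All 44 mouse genes whose symbol names a collagen chain (the letters Col, a type number, the letter a and a chain number) were followed among the 32285 features counted in single cells of the lung. They comprised 11 fibrillar chains, 9 network chains, 6 beaded-filament chains and 18 other chains. Of these, 24 passed the filter on low counts in at least 1 of 10 cell classes and could be tested, and the other 20 were described by their UMI counts alone. A UMI is a molecular tag that counts each captured transcript once.

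The study sequenced 6 libraries of lung cells from which blood cells had been sorted away, called niche cells. The 3 Control libraries came from normal lung. The 3 AML libraries came from lung infiltrated by acute myeloid leukaemia carrying Trp53 R172H/Δ, and sorted GFP+ leukaemia cells had been added back to them at 20% of the suspension beside 80% niche cells. The labels name no such addition for Control, so the make-up of the suspension and the disease cannot be told apart. Nor do they say how the leukaemia was given or which cells of the host carried the Trp53 alleles. Strain, age, sex and the number of animals per library were not given in the sources used here, and the p-values measure the spread between these libraries.

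Collagens are secreted proteins whose chains wind around each other as trimers. Fibrillar collagens (types I, III, V and relatives) form the cable-like fibres that give the lung its tensile strength and are made mainly by fibroblasts. Network collagens, above all type IV, form the sheet of the basement membrane under endothelium and epithelium, and beaded collagen (type VI) links that sheet to the surrounding fibres. The other chains include fibril-associated (XII, XIV, XVI), transmembrane (XIII, XXIII) and endostatin-bearing (XV, XVIII) collagens.

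After filtering, 23745 cells were kept, with a median of 3723 to 8323.5 UMIs per cell in the 6 libraries and 19060359 to 46018541 UMIs per library over all barcodes. The cells fell into 29 clusters, of which 25 were named from fixed markers that include no collagen gene. A class is therefore X-like by its markers, and is called by the bare name X from here on. The 4 unnamed clusters held 6140 cells, including 2810 capillary cells found mostly in Control and 2538 found mostly in AML 2 and AML 3. The remaining clusters were 464 cells of Control 3 alone, and 328 cells with 224 from Control 1. Although blood cells had been sorted away, the classes included 332 B lymphocytes, 314 T and NK lymphocytes and 210 neutrophils. Another 437 cells were named from platelet markers. They carried the pan-endothelial markers at a mean log level of 2.64 against 0.0429 for the pan-haematopoietic markers, so they are endothelial cells with platelet RNA by these markers. Pairs of libraries shared 1 to 20 cell barcodes. Cells classed as pericytes carried the pan-endothelial markers at a mean log level of 1.6 against 0.303 for the pan-mesenchymal markers.

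The 44 genes gave 168230 UMIs in the cells used. Network chains held 68.6% of them, fibrillar chains 19.8%, other chains 6.46% and beaded chains 5.1%. Col4a1 alone, the main basement membrane chain, gave 74301 UMIs, and Col4a2, its partner, gave 35779. Among the 20 chains never tested the highest total was 414 UMIs, for Col7a1 (anchoring fibrils), the median was 20, and Col9a1 (cartilage) had none. Because each UMI marks a transcript's 3′ end, these counts are not divided by gene length, and totals of different genes still differ by how well each is captured.

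Levels differed between lineages. They are given here in CPM, the UMIs of a gene per 1000000 UMIs of the class, as mean ± SD over libraries. Fibrillar chains were highest in adventitial fibroblasts at 6606 ± 3687 (n = 6), then in alveolar fibroblasts at 2383 ± 1506 (n = 6) and myofibroblasts at 1566 ± 934 (n = 6). These intervals overlap over libraries that pool Control and AML, but within each of the 6 libraries the order was adventitial, alveolar, then myofibroblast. Adventitial fibroblasts were 2.01 to 6.89 times alveolar fibroblasts, on as few as 13 cells in a library, and alveolar fibroblasts 1.06 to 2.03 times myofibroblasts. In aerocytes, the gas-exchange capillary cells, fibrillar chains were at 2.56 ± 2.01 (n = 6), below the 8.73 ± 8.24 (n = 6) of B lymphocytes, cells not known to make fibrillar collagen.

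Network chains were highest in alveolar type 1 cells at 2449 ± 591 and pericytes at 2153 ± 820 CPM (n = 6 each). They stood at 1189 ± 195 in general capillary cells and 1204 ± 200 in aerocytes (n = 6 each). In pericytes AML 2 was at 3742, and the remaining libraries ran from 1649 to 2345. The alveolar type 1 class had only 5 cells in Control 1. It carried the pan-endothelial markers at a mean log level of 0.965 against 0.748 for the pan-epithelial markers. Pericytes carried pan-endothelial markers too, as given above. The part of endothelial RNA in the network level of these 2 classes was not tested. Alveolar type 1 cells line the air space, and they were the leading class for Col4a3 (645 ± 291), Col4a4 (417 ± 141) and Col4a5 (200.1 ± 98.3, all n = 6), the chains of the specialised alveolar basement membrane. Col8a2, a short network chain, was highest in ciliated cells at 79.7 ± 18.4 (n = 6). Col13a1, a transmembrane collagen used to define lung fibroblasts, was highest in alveolar fibroblasts at 270.2 ± 61.9 (n = 6). Col23a1, another transmembrane chain, was highest in lymphatic endothelium at 173 ± 79.5 (n = 5).

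**Figure D1:**
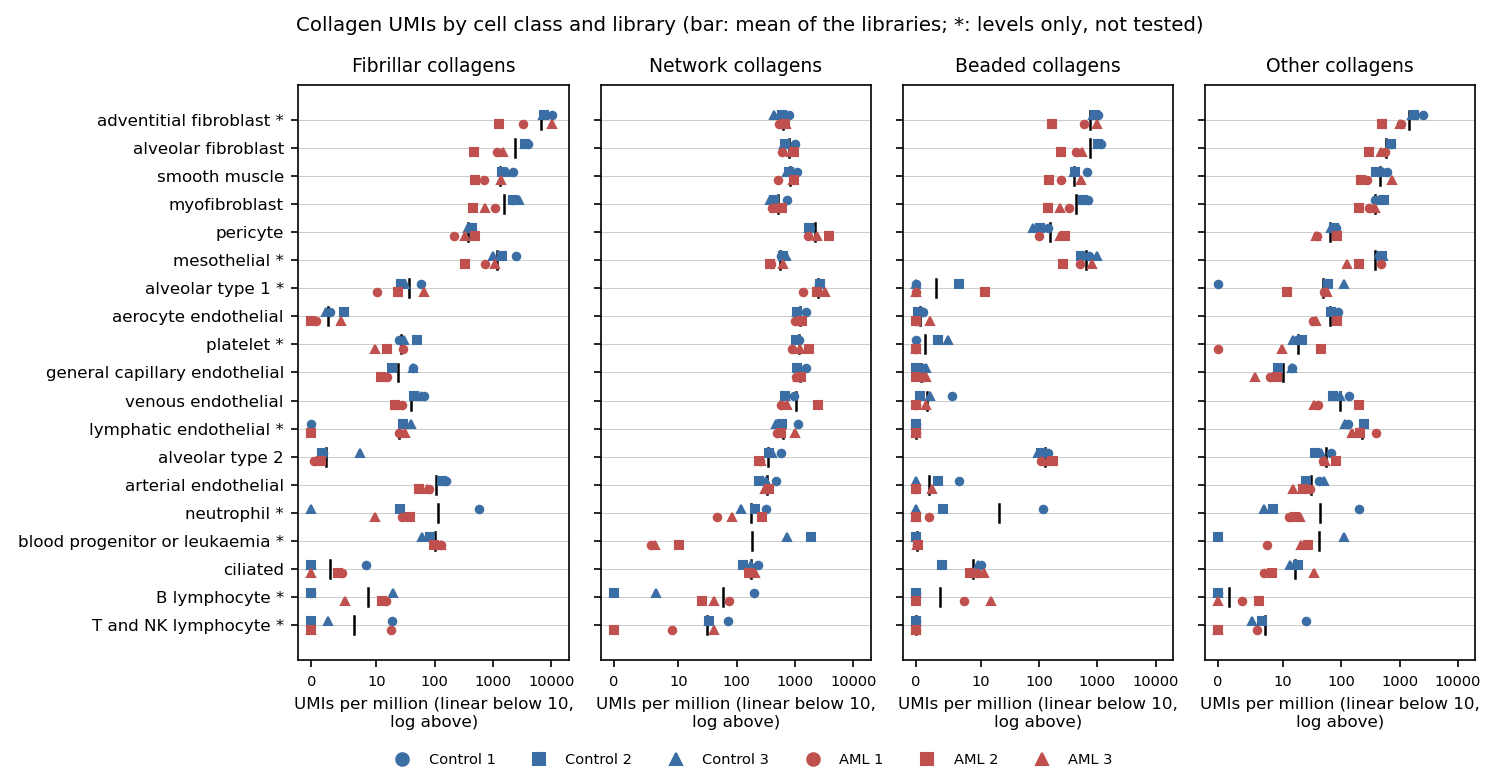
Summed CPM (x axis, linear below 10 and log above) of the 4 collagen classes in 19 named cell classes (rows), with 1 point per library and a bar for the mean over libraries. Fibrillar chains range from a mean of 2.33 in alveolar type 2 cells to 6606 in adventitial fibroblasts, whereas network chains are spread over endothelium, epithelium and mesenchyme.

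In AML lungs all 6 tested fibrillar and all 3 tested beaded chains were lower in alveolar fibroblasts. In myofibroblasts 3 of 5 tested fibrillar and 2 of 3 tested beaded chains were lower. The main basement membrane chains of capillary cells were not called. Adventitial fibroblasts were not tested. Across the 10 classes, 16 chains were lower in AML in at least 1 class and 1 chain, Col23a1, was higher in 1 class, while 7 of the 24 tested chains passed in no class. Of the 12677 genes tested in any of these classes 5.9% were lower in at least 1 class and 4.0% were higher in at least 1. By class of collagen, all 6 tested fibrillar chains, all 3 tested beaded chains, 3 of 8 tested network chains and 4 of 7 tested other chains were lower in some cell class. The test was edgeR's quasi-likelihood test on UMIs summed per library and cell class, with Benjamini-Hochberg adjustment over all genes of the class at 0.05.

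**Figure D2:**
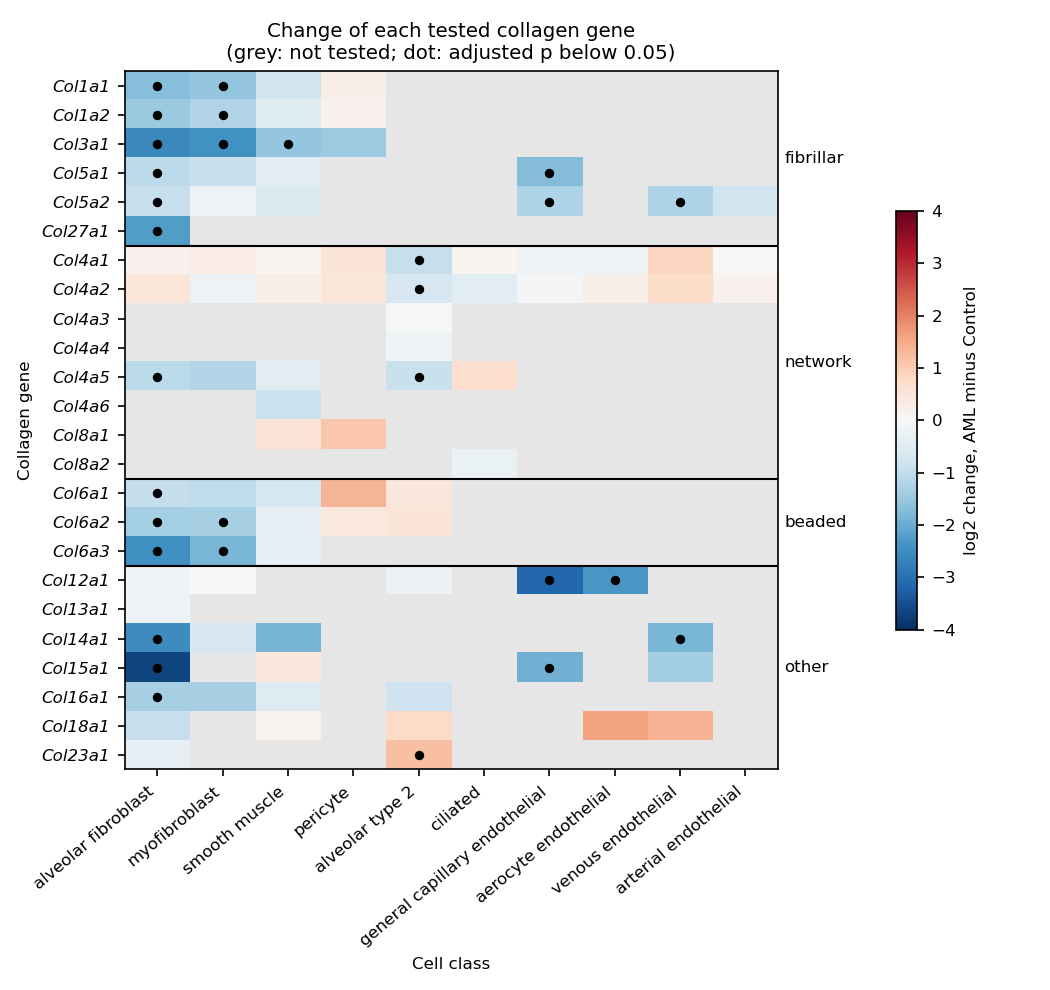
Log2 change, AML minus Control, of the 24 tested collagen genes (rows, grouped by collagen class) in 10 cell classes (columns). Grey cells were not tested and a dot marks an adjusted p below 0.05, so the dots gather in the fibroblast columns and are absent for Col4a1 and Col4a2 outside alveolar type 2 cells.

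Alveolar fibroblasts, the matrix-producing cells of the alveolar wall, showed the broadest change. Of 19 chains tested, 13 were lower in AML and none was higher, where 2.37% of the 6290 genes tested in this class were lower. The 13 were all 6 fibrillar chains (Col1a1, Col1a2, Col3a1, Col5a1, Col5a2, Col27a1), all 3 beaded chains (Col6a1, Col6a2, Col6a3), 1 of 3 network chains (Col4a5) and 3 of 7 other chains (Col14a1, Col15a1, Col16a1). The median log2 change of the 19 chains was -1.07, beside 0.01 for all genes tested. In 14 of the 19 the Control and AML libraries did not overlap, as in 21.4% of all genes, and 1.37% of all genes were higher.

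The fibrillar sum in alveolar fibroblasts was 4082, 3894 and 3782 CPM in Control 1, 2 and 3 and 1202, 530 and 1608 in AML 1, 2 and 3, here and below on the TMM-scaled scale used by the tests. Every AML library lay under every Control library, and the means differed 3.52-fold (3919 ± 152 against 1113 ± 545, SD, n = 3 each). AML 2 was the lowest of the 6. The beaded sum was lower too, at 1124 ± 47.2 against 433 ± 169 (n = 3 each).

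The network sum in the same cells did not separate the groups, with 995, 745 and 686 in Control and 617, 1039 and 912 in AML. Thus AML 2, lowest for fibrillar chains, was the highest for network chains. The cells classed here numbered 44 to 68 per Control library and 105 to 320 per AML library.

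The chains described first lie apart in the genome (GRCm38, GENCODE M21, whole gene spans): Col3a1 (ENSMUSG00000026043) at chr1:45311538-45349706 and Col6a3 (ENSMUSG00000048126) at chr1:90765923-90843971, with Col1a1 (ENSMUSG00000001506) at chr11:94936224-94953042 and Col1a2 (ENSMUSG00000029661) at chr6:4504814-4541544. Col3a1, the type III chain that mixes with type I in fine fibres, was at 1374, 1518 and 1502 CPM in the Control libraries and 256, 85.6 and 395 in the AML libraries. It fell by 2.58 ± 0.42 on the log2 scale (± SE, edgeR adjusted p = 0.00502), and the groups were far apart. Col1a1, the first type I chain, was at 868, 810.0 and 754 in Control and 291, 112 and 345 in AML, a fall by 1.71 ± 0.33 (edgeR adjusted p = 0.00686). Its partner Col1a2 was at 1439, 1148 and 1146 in Control and 505, 190.1 and 630 in AML, a fall by 1.5 ± 0.34 (edgeR adjusted p = 0.0198). Both type I chains were thus lower, without overlap of the groups.

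Col27a1, a fibrillar chain known from developing cartilage, fell from 62.8, 65.4 and 74.6 in Control to 18.8, 7.96 and 18.1 in AML. Its log2 change was -2.24 ± 0.35 (edgeR adjusted p = 0.0014), and the change passed the threshold with each of the 6 libraries left out in turn. Col15a1, a proteoglycan collagen of the basement membrane zone, had 29.1, 54.0 and 24.1 in Control and 4.69, 1.99 and 2.13 in AML. At -3.67 ± 0.59 it had the largest log2 change of the 19 (edgeR adjusted p = 0.00175), on 48 UMIs in all, and it also passed in all 6 leave-one-out fits. The type V chains Col5a1 and Col5a2, which start and limit fibril growth, fell by 1.06 ± 0.27 and 0.91 ± 0.25 (edgeR adjusted p = 0.0301 and 0.0448).

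Among beaded chains Col6a3 went from 359, 247 and 371 to 56.3, 18.9 and 101, a fall by 2.47 ± 0.48 (edgeR adjusted p = 0.0253). Col6a2 went from 287, 364 and 313 to 136, 64.7 and 179 (edgeR adjusted p = 0.0154), and Col6a1 had a smaller log2 change of -0.95 ± 0.25 (edgeR adjusted p = 0.0391). The 3 tested chains of type VI collagen were therefore all lower, by unequal amounts, and Col6a4, Col6a5 and Col6a6 were not tested.

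Col14a1, a fibril-associated collagen also abundant in adventitial fibroblasts, went from 126, 185 and 169 to 46.9, 6.97 and 36.3 (log2 change -2.53 ± 0.46, edgeR adjusted p = 0.0135). Col16a1, another fibril-associated chain, went from 38.1, 39.8 and 55.4 to 18.8, 19.9 and 14.9 (edgeR adjusted p = 0.035), but was called in none of the 6 leave-one-out fits (edgeR adjusted p = 0.0524 to 0.237) and not with DESeq2. Col4a5 was the sole network chain called here, at 128, 108 and 108 in Control and 77.5, 38.8 and 54.4 in AML (edgeR adjusted p = 0.0303). The main basement membrane chains were not called: Col4a1 changed by 0.17 ± 0.27 and Col4a2 by 0.49 ± 0.28. Nor were Col13a1 (-0.21 ± 0.25), Col23a1 (-0.33 ± 0.27), Col12a1 (-0.17 ± 0.34) and Col18a1 (-0.93 ± 0.34).

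**Figure D3:**
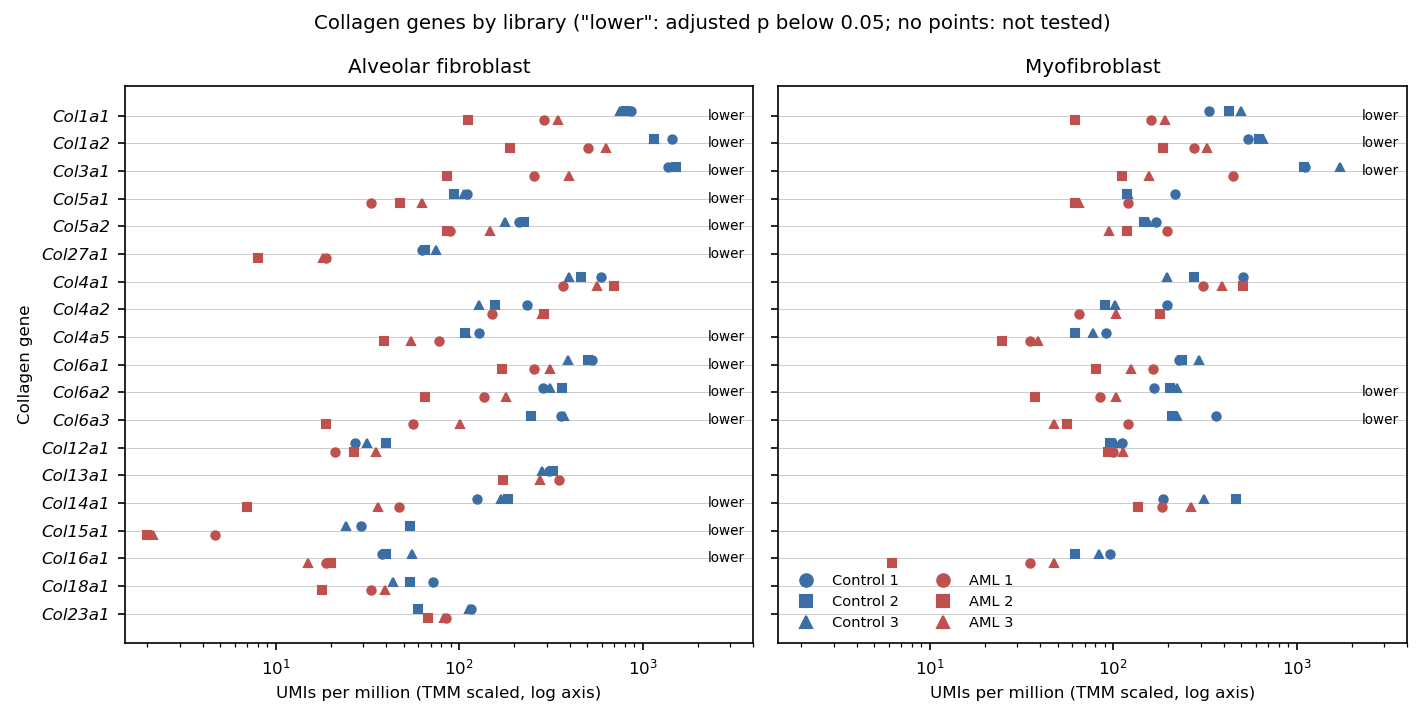
CPM (TMM scaled, log x axis) of each collagen gene tested in alveolar fibroblasts (left) or myofibroblasts (right), 1 point per library, with the word lower at genes of adjusted p below 0.05. For Col3a1 the Control points lie between 1374 and 1518 and the AML points between 85.6 and 395 in alveolar fibroblasts, while Col4a1 points of both groups intermingle.

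The same difference was seen as a share of cells at equal depth. Thinned to 2000 UMIs per cell, 85.3%, 76.0% and 86.0% of alveolar fibroblasts of Control 1, 2 and 3 held a Col3a1 UMI, against 32.7%, 11.2% and 27.5% in AML 1, 2 and 3. Without thinning the shares were 88.6%, 76.7% and 91.2% against 52.4%, 17.5% and 40.2%. Between 7 and 40 shallower cells per library were left out, and median depth was 6404 to 9208 UMIs in Control and 3328 to 4138 in AML. In B lymphocytes, which should lack Col3a1, the highest thinned share in any library was 3.13%, at median depths of 2026 to 7041. Col4a1, thinned likewise, was held by 38.6% to 58.8% of Control and 41.8% to 63.1% of AML alveolar fibroblasts, which overlap.

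Other RNA moved with these results. Summed markers of adventitial fibroblasts in this class were 1909 to 2532 CPM in Control and 671 to 1383 in AML, with 2 of 6 tested markers lower. Summed pan-endothelial markers were 105 to 693 in Control and 42.3 to 78.6 in AML, with both tested markers lower and none of the 4 at 0 in all libraries. Summed general capillary markers were 227 to 1495 and 101 to 146, and 1 of 2 tested was lower. Markers of B lymphocytes were at 0 in every library. The class's own markers were at 10620 to 12600 and 12350 to 17160, which overlap. Summed pan-mesenchymal markers, which include no collagen, were 22130 to 28380 in Control and 11130 to 18100 in AML without overlap, and 2 of 7 tested, Fbln1 and Mfap4, were lower. Mesothelial markers were at 130.0 to 185 against 230.5 to 406, with the 1 tested marker (Upk1b) called, and aerocyte markers at 716 to 826 against 958 to 1206, with 1 of 3 (Fibin) called. The part of these differences in the collagen changes was not tested. Of the 6 fits that each leave out 1 library, Col3a1 and Col1a1 were called in 5, Col14a1 in 4, Col6a3 in 3, Col1a2, Col5a1, Col6a2 and Col4a5 in 2, Col5a2 in 1 and Col6a1 in none. The number of chains lower was 2 without Control 1, 4 without Control 3, 6 without AML 2, and 8 without Control 2 or without AML 1. It was 3 at a coarser clustering resolution of 0.5, which formed no separate adventitial class, 7 with equal cells per library and 9 with DESeq2.

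Adventitial fibroblasts, which hold the most fibrillar collagen, had under 20 cells in Control 1 and AML 2 and were not tested. Their fibrillar sums were 10200, 7395 and 7221 CPM in Control and 3220, 1256 and 10340 in AML. AML 3 lay above every Control library there, so the groups overlapped.

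Myofibroblasts, contractile cells of the alveolar duct, showed a similar pattern over fewer chains. Of 14 chains tested, 5 were lower and none was higher, where 0.737% of the 3664 genes tested were lower and 0.682% higher. The groups did not overlap in 8 of the 14, as in 19.8% of all genes. The 5 were Col1a1, Col1a2 and Col3a1 of the fibrillar chains and Col6a2 and Col6a3 of the beaded chains, all of which were also lower in alveolar fibroblasts. The fibrillar sum was 2417, 2494 and 3249 in Control and 1224, 555 and 891 in AML, without overlap. The network sum overlapped, at 583 ± 206 against 581 ± 138 (n = 3 each).

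Col3a1 in myofibroblasts was at 1112, 1105 and 1715 in Control and 452, 112 and 156 in AML, a fall by 2.43 ± 0.42 (edgeR adjusted p = 0.0163). Col6a3 was at 364, 209.8 and 222 in Control and 120.4, 56.2 and 47.8 in AML (log2 change -1.82 ± 0.35, edgeR adjusted p = 0.0152). Col1a1 was at 334, 431 and 498 against 160.6, 62.4 and 191 (edgeR adjusted p = 0.0171). In each of these chains the highest AML library stayed under the lowest Control library.

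Col1a2 was at 541, 624 and 660 in Control and 276, 187 and 326 in AML (log2 change -1.19 ± 0.27, edgeR adjusted p = 0.0287). Col6a2 was at 167, 204 and 222 against 85.3, 37.4 and 104 (edgeR adjusted p = 0.0486). Col4a1, at 511, 278 and 198 against 311, 512 and 391, overlapped and was not called. Col12a1, a fibril-associated chain highest in this class, had nearly equal means of 103 ± 7.5 and 102 ± 9.82 (n = 3 each). Alveolar fibroblast markers in this class were 119 to 150 CPM in Control and 252 to 271 in AML, with 1 of 2 tested (Inmt) higher. Pericyte markers were 414 to 470.2 against 311 to 365, with none of 3 tested called. The class's own markers were at 11030 to 12970 against 3357 to 8385, with none of the 7 tested markers called, and its general capillary markers were at 431 to 1138 against 268 to 407. The part of these differences was not tested. Leaving out 1 library gave 1 to 5 chains called, with 1 without AML 2, 2 without Control 3 or without AML 3 and 3 without Control 2. With doublets kept 1 chain was called, and with equal cells per library 3.

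Promoter sequence is shown for the chains lower in both fibroblast classes that RefSeq's table covers and that span both collagen classes, as the genomic context of genes that moved together. Of the 44 genes 35 had an entry (assembly GRCm38.p6, matched by symbol), and Col1a1 had none. Each line gives the 150 bases before RefSeq's annotated start, 5′ to 3′ on the gene's strand, with motif matches in capitals: Col1a2 at chr6:4505468-4505617 (plus strand), Col3a1 at chr1:45311388-45311537 (plus strand) and Col6a3 at chr1:90843972-90844121 (minus strand).
Col1a2: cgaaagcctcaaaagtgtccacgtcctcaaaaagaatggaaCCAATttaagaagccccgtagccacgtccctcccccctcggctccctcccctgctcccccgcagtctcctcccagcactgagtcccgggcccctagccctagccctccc
Col3a1: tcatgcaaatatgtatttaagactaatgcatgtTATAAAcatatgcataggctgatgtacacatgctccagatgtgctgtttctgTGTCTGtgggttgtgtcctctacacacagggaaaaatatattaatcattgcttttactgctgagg
Col6a3: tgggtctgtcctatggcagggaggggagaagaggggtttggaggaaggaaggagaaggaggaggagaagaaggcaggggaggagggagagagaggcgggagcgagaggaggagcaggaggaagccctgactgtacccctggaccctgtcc
The motifs searched, on both strands, were the TATA box as TATAAA, the NF-Y box as CCAAT, the GC box as GGGCGG and the Smad element as CAGACA. No match shown overlaps another. In capitals are CCAAT for Col1a2, and for Col3a1 both TATAAA and the reverse complement of CAGACA. Col6a3 held no match in this window.

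Over 250 bases before the start, these motifs occurred in 12.4%, 33.8%, 32.7% and 17.1% of all 32851 promoters in the table. Of the 35 collagen promoters 5 held TATAAA, 13 CCAAT, 21 GGGCGG and 9 CAGACA. Of the 10 chains lower in alveolar fibroblasts with an entry, 1, 3, 6 and 3 held them, and of the 5 tested chains there that were not called, 1, 3, 3 and 1. A match is a run of letters and not a bound site.

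Smooth muscle cells had 1 of 17 tested chains lower, where 0.529% of the 5479 genes tested were lower and 0.274% higher. The groups did not overlap in 3 of the 17, as in 16.5% of all genes. Col3a1 was at 744, 534 and 751 CPM in Control and 217, 153 and 318 in AML (log2 change -1.54 ± 0.3, edgeR adjusted p = 0.00834). The fibrillar sum was 2156, 1524 and 1806 in Control and 749.6, 527 and 1646 in AML. AML 3 thus lay inside the Control range, also for Col1a2 (709.8, against 323 and 183 in the other AML libraries). Without AML 3 there were 3 chains called, Col1a1 and Col6a1 besides Col3a1, and the log2 ratio of the fibrillar sums went from -0.91 to -1.51. Without Control 2, or with DESeq2, Col3a1 and Col14a1 were called, and without Control 1 or Control 3 none was. Summed smooth muscle markers in AML 3 were 71270 CPM against 31410 to 44330 in the other 5 libraries, and their part in this result was not tested.

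Pericytes, which wrap capillaries and were the leading class for Col4a1 and Col4a2, had no chain called among 8 tested, where 0.163% of 4899 genes were lower and 0.204% higher. The groups did not overlap in 2 of the 8 (Col3a1 and Col8a1), as in 18.1% of all genes. By edgeR and by DESeq2 alike, 3 of the 8 had an unadjusted p below 0.05. Col3a1 was at 124, 177 and 114 in Control and 52.7, 48.8 and 53.1 in AML (log2 change -1.44 ± 0.34, edgeR adjusted p = 0.0672). Col4a1 was at 1239, 1218 and 1158 in Control and 1074, 2566 and 1576 in AML, and Col4a2 at 723, 587 and 636 against 625, 1318 and 767. AML 2 stood above the other 5 libraries for both, and without it the log2 ratio of the network sums was 0.17 in place of 0.54. Without AML 1, Col3a1 was called lower and Col6a1 and Col8a1 higher. In Control the class carried more general capillary than pericyte marker RNA, at 8628 ± 1828 against 3507 CPM (n = 3 each). In AML the general capillary markers were at 5617 ± 3124 (n = 3), and pericyte markers ran from 3711 to 8620, the highest being AML 2. Arterial markers were 962 to 1340 in Control and 519 to 836 in AML, and smooth muscle markers 124 to 431 and 548 to 718, both without overlap and with no tested marker called. Their part was not tested.

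Alveolar type 2 cells, the surfactant-producing epithelium, had 3 of 11 tested chains lower, where 2.29% of 9915 genes were lower, and 1 chain higher, where 1.97% were higher. All 3 were basement membrane chains, and 2 of them, Col4a1 and Col4a2, were not called in either fibroblast class. The difference between the classes was not tested. Col4a1 was at 233, 188 and 184 in Control and 112, 93.1 and 113 in AML (log2 change -0.93 ± 0.18, edgeR adjusted p = 0.00817). Col4a2 was at 131, 91.7 and 111 against 75.7, 62.1 and 72.7 (log2 change -0.66 ± 0.18, edgeR adjusted p = 0.0366). Col4a5 was at 20.2, 14.1 and 21.6 against 9.63, 9.95 and 10.3 (edgeR adjusted p = 0.0312). In 6 of the 11 chains, these 3 and Col23a1 among them, the groups did not overlap, as in 25.7% of all genes.

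Col23a1, a transmembrane collagen, was higher in alveolar type 2 cells, at 19.8, 14.7 and 12.8 in Control and 29.2, 51.7 and 30.9 in AML (log2 change 1.22 ± 0.23, edgeR adjusted p = 0.00751). Col4a3 and Col4a4, also basement membrane chains, changed by -0.01 ± 0.2 and -0.21 ± 0.18 and were not called. Col6a1, the leading beaded chain of these cells, was at 105, 94.0 and 82.0 against 96.0, 158 and 131, which overlap. Capillary markers in this class were 72.9 to 142 CPM in Control and 32.6 to 72.6 in AML, with none of 5 tested markers called, and the class's own markers were 175100 to 264400 and 266200 to 284400. Their part was not tested. With free RNA subtracted the same 4 chains were called, Col4a1 with an edgeR adjusted p of 0.00739. Without AML 2 none was called, without AML 3 only 1, and without Control 1 or Control 3 only 2. With equal cells per library 2 were called.

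General capillary cells carry mainly Col4a1 and Col4a2, which were not called. Col4a1 was at 986, 767 and 782 CPM in Control and 674, 893 and 725 in AML (log2 change -0.15 ± 0.21). Col4a2 was at 498, 319 and 359 against 327, 412 and 393 (-0.06 ± 0.21). The groups overlapped for both chains.

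Of the 6 chains tested in general capillary cells, 4 at low levels were lower, where 2.74% of 10551 genes were lower and 1.54% higher. In the same 4 the groups did not overlap, as in 28.6% of all genes. Col5a2 was at 22.8, 12.4 and 24.2 in Control and 9.17, 2.12 and 8.95 in AML (edgeR adjusted p = 0.0456), and Col5a1 at 10.1, 4.87 and 13.6 against 3.36, 4.25 and 1.63 (edgeR adjusted p = 0.0431). Col12a1 was at 7.58, 3.45 and 6.23 against 0.904, 0 and 0.325 (edgeR adjusted p = 0.00814). Col15a1 was at 4.21, 4.26 and 4.29 against 0.775, 1.06 and 1.46 (edgeR adjusted p = 0.0269). These are low levels, from 58 to 305 UMIs per gene over all libraries. The class's own markers overlapped between the groups, at 10070 to 10840 and 9472 to 11300. Markers of venous endothelium (181 to 250 against 293 to 565) and of alveolar type 1 cells (1222 to 1398 against 1823 to 2250) did not, with 1 of 4 tested called higher in each (Vwf and Hopx). Pericyte markers were at 23.6 to 37.1 against 37.7 to 51.2, with none of 3 tested called. Of 7 tested aerocyte markers 1 was higher and 2 were lower. The part of these differences was not tested.

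Barcodes with too few genes to be cells, which carry free RNA, held fibrillar chains at 106, 45.5 and 76.2 CPM in Control and 21.9, 18.9 and 46.4 in AML, which differ the same way apart from an overlap of Control 2 with AML 3. With the RNA of these barcodes subtracted, at 1.99% to 10.1% of the UMIs of the general capillary class, the 4 chains were still called. Per library these barcodes held only 1 to 7 UMIs of Col5a2, 1 to 4 of Col5a1, 1 to 5 of Col12a1 and 0 to 2 of Col15a1. So little was subtracted that the fit does not measure the part of free RNA in these low levels, which was not tested. The 4 clusters of the class were unevenly filled, with 360 cells in AML 2. With only the cluster that had 20 cells in every library, with doublets kept, or with equal cells per library, none was called, and with collagen genes allowed in clustering 2 were. None was called without AML 3, 1 was without Control 1, Control 3 or AML 2, and 2 were without AML 1.

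The capillary clusters outside this class differed in level. Cluster 9, filled by AML 2 and AML 3 and led by Plat and Ly6c1, held Col4a1 at 1098, 1596 and 1023 CPM in AML 1, 2 and 3. Cluster 2, the general capillary cluster present in every library, held it at 634, 912 and 677 in the same libraries. With both outside clusters counted as general capillary, an alternative chosen after seeing the data, 3 chains were called, and the log2 ratio of the network sums was 0.37 in place of -0.12.

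Aerocytes had 1 of 4 tested chains lower, where 2.25% of 8982 genes were lower and 1.21% higher. Its groups did not overlap, as in 23.2% of all genes. Col12a1, a fibril-associated collagen, was at 57.8, 59.2 and 64.1 CPM in Control and 15.2, 6.61 and 12 in AML, a fall by 2.34 ± 0.27 (edgeR adjusted p = 0.000306). It was called in all 6 leave-one-out fits and in all 9 other alternatives. In the same class 2 of 8 tested aerocyte markers (Apln and Emp2) were lower, and their sum was 10560 to 14240 in Control and 8889 to 11130 in AML. Lymphatic markers were at 334 to 403 against 436 to 834, with Lyve1 higher and Flt4 lower, and alveolar type 1 markers at 2973 to 4159 against 4832 to 5079, with none of 4 called. Their part was not tested. Col4a1 and Col4a2 were not called, at 802 ± 127 against 727 ± 106 and 408 ± 97.0 against 482 ± 96.0 (n = 3 each). Col18a1, the endostatin chain, was at 21.8, 7.96 and 7.25 against 16.6, 79.3 and 24.0, with AML 2 standing apart.

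Venous endothelium had 2 of 6 tested chains lower, where 0.34% of 8821 genes were lower and 0.147% higher. Col14a1 was at 47.0, 51.2 and 46.5 in Control and 17, 4.15 and 15.1 in AML (log2 change -1.82 ± 0.32, edgeR adjusted p = 0.0302), and Col5a2 at 47.7, 43.2 and 41.1 against 18.6, 14.5 and 20.7 (edgeR adjusted p = 0.0497). In these 2 of the 6 chains the groups did not overlap, as in 19% of all genes. Col5a2 lost its call in 6 of 9 other alternatives (DESeq2, RLE scaling, free RNA subtraction, the replicate block, equal cells and collagen genes in clustering), and Col14a1 in none. Neither was called without any 1 of the Control libraries or without AML 3, and without AML 2 Col14a1 and Col15a1 were. AML 2 stood apart for the basement membrane chains, with Col4a1 at 1990 against 394 to 612 in the other 5 libraries. Without AML 2 the log2 ratio of the network sums went from 0.82 to -0.22. The class's own markers were at 4486 to 5756 in Control and 6123 to 7857 in AML, with none of 7 tested called, and their part was not tested.

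Arterial endothelium (3 tested, 0.204% of 5896 genes lower and 0.187% higher) and ciliated cells (4 tested, 0.352% of 6823 genes lower and 0.264% higher) had no chain called. The groups did not overlap in 1 of the 3 arterial chains and in none of the 4 ciliated chains, as in 18.1% and 14.6% of all genes. In arterial cells 1 chain had an unadjusted p below 0.05 by edgeR and by DESeq2, Col5a2 at 102, 104 and 94.4 in Control and 64.6, 48.2 and 61.8 in AML (edgeR adjusted p = 0.245). In ciliated cells none did by either tool.

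**Figure D4:**
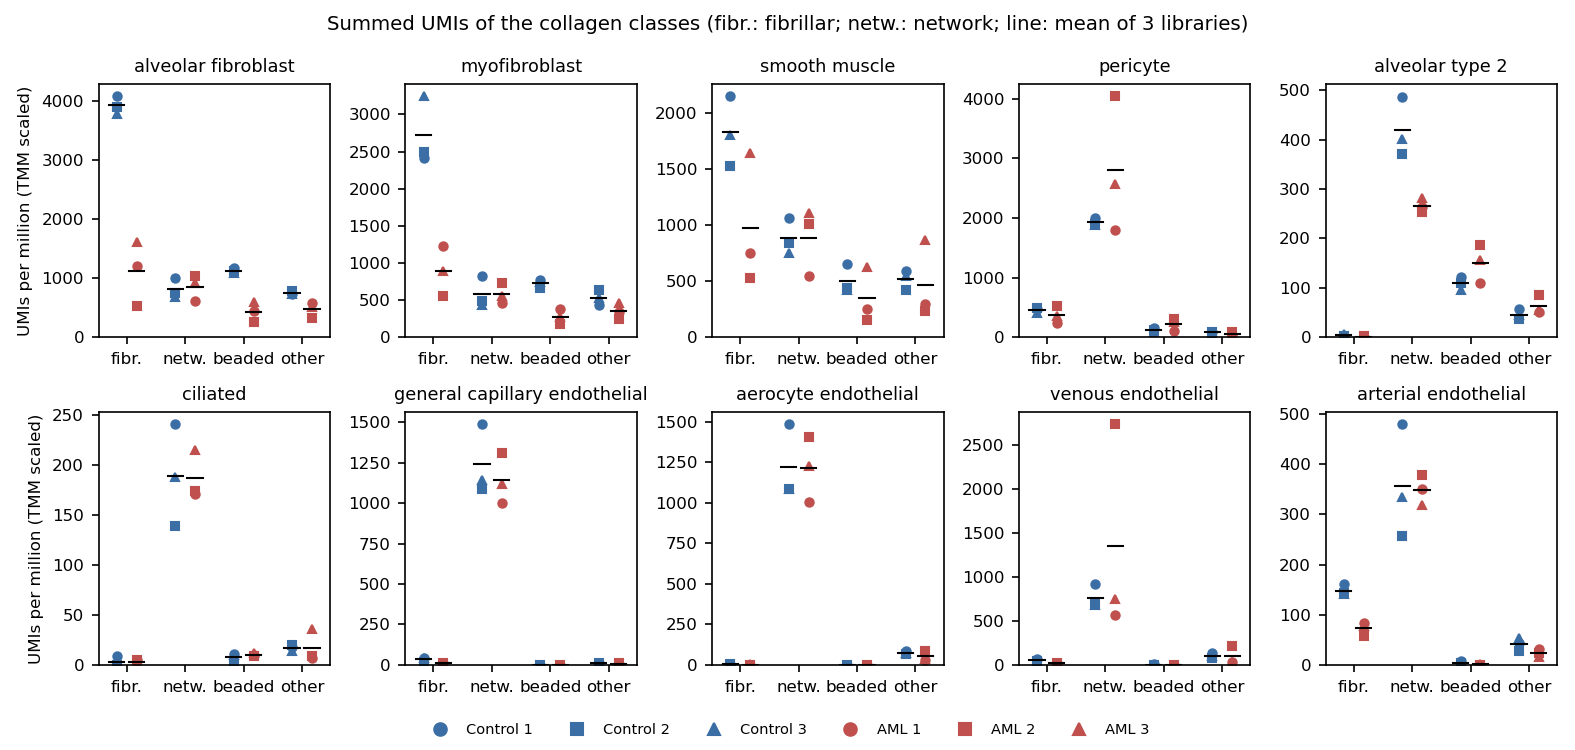
Summed CPM (y axis, TMM scaled, from 0) of fibrillar, network, beaded and other chains in the 10 tested cell classes, 1 point per library, with a line for the mean of 3 libraries. The fibrillar sums of alveolar fibroblasts and myofibroblasts separate Control from AML, while AML 2 stands high for network chains in pericytes and venous cells.

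Whether the AML effect differed between classes was tested for 2 pairs, with the library as a block because both classes come from the same libraries. Between alveolar fibroblasts and general capillary cells, 1 of 21 chains differed, where 2.28% of 9881 genes did. It was Col12a1, whose change was 2.93 ± 0.72 less negative in alveolar fibroblasts (edgeR adjusted p = 0.0227), and this was not called without Control 1, Control 3 or AML 3. The low-count filter took both classes together, while only 6 chains were tested in general capillary cells alone. Col3a1 and Col1a1 were not among those 6 and entered through their fibroblast counts. Their differences in AML effect, -0.07 ± 0.31 and 0.13 ± 0.31, therefore do not show an equal effect in the 2 classes. Between aerocytes and general capillary cells none of 5 chains differed by edgeR's adjusted p, where 2.73% of 10152 genes did, and 1 had an unadjusted p below 0.05. DESeq2 was not run for these differences. The planned pair of alveolar and adventitial fibroblasts could not be run.

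The genes that build, cut and bind collagen were counted from 5 lists, beside the 2.37% of all genes lower and 1.37% higher in alveolar fibroblasts. In alveolar fibroblasts 2 of 16 tested folding and secretion genes were lower, 1 of 6 tested cleavage and crosslinking genes was lower and 1 higher, and 2 of 4 tested breakdown and uptake genes were lower. None of 3 tested receptors and none of 5 tested small proteoglycans was called. Lox, the enzyme that crosslinks collagen fibres, was higher, at 502, 259 and 325 CPM in Control and 1056, 2610.0 and 1264 in AML (log2 change 2.18 ± 0.35, edgeR adjusted p = 0.00217). Mmp2, a gelatinase, was lower at 372, 415 and 329.8 against 108, 58.7 and 107 (edgeR adjusted p = 0.000351). Serpinh1, the collagen chaperone, fell by 1.82 ± 0.39 (edgeR adjusted p = 0.0245), and Pcolce, which aids removal of the procollagen end, by 1.62 ± 0.34 (edgeR adjusted p = 0.0156). Lox thus rose in the cells in which fibrillar chains were lower.

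In the other 9 classes 17 of 183 tested pairs of a listed gene and a class were lower (9.29%) and 1 was higher, where 1.3% of all 65030 such pairs were lower and 0.858% higher. Serpinh1 gave 6 of these lower pairs and P4ha1 gave 4. Serpinh1 was lower in 7 of 10 classes (aerocyte, alveolar fibroblast, alveolar type 2, arterial, ciliated, general capillary and myofibroblast). P4ha1, a subunit of the enzyme that hydroxylates collagen prolines, was lower in 5 of 10 (aerocyte, alveolar fibroblast, ciliated, smooth muscle and venous), while its relative P4ha2 was higher in aerocytes by 1.07 ± 0.23 on the log2 scale (edgeR adjusted p = 0.0166). Of the 2844 genes tested in all 10 classes, 0.105% were lower in 7 or more and 0.281% in 5 or more, and the classes share their libraries. Pcolce and the collagen receptor Ddr2 were lower in myofibroblasts. In smooth muscle the small proteoglycans Aspn, which is also on the myofibroblast marker list, and Ogn were lower, by log2 changes of -1.43 ± 0.3 and -1.41 ± 0.31 (edgeR adjusted p = 0.0171 and 0.0196).

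The class named from blood progenitor markers, called the leukaemia class here, also held collagen UMIs, of a narrow set of chains. It comprised 603, 1135 and 1095 cells in AML 1, 2 and 3 at a median of 29817, 22906 and 20555 UMIs, against 2 and 9 cells in Control 2 and 3, so it has no Control group and was not tested. Col1a2 gave 3894 UMIs there, 32.5% of all Col1a2 UMIs used, at 49.0, 52.8 and 71.7 CPM. Col5a1 gave 3734 UMIs, 74.9% of its total, at 77.4, 42.9 and 53.6 CPM. Both chains were thus at 42.9 CPM or above in each of the 3 libraries. The class held 17978830, 26181878 and 22761621 UMIs of any gene, where these libraries had 39919902, 45953347 and 46018541 over all barcodes. A share of a chain's UMIs therefore also reflects the large share of all RNA in this class. In plain CPM, alveolar fibroblasts of these libraries had Col1a2 at 489, 173 and 588 and Col5a1 at 31.9, 43.5 and 58.8.

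The partner chains were nearly absent from the same cells. Col1a1 gave 2 UMIs, Col3a1 gave 23 and Col5a2 gave 41. In alveolar fibroblasts of these libraries Col1a2 and Col1a1 stood at a ratio of 1.73, 1.71 and 1.83, so the leukaemia class did not carry the chains in the fibroblast proportion. Col18a1 gave 903 UMIs (4.01, 20.0 and 13.5 CPM) and Col7a1 gave 300, which was 72.5% of that chain's total. In B lymphocytes of the same libraries Col1a2 gave 2 UMIs, and Col5a1 gave none. In T and NK lymphocytes Col1a2 gave 2 UMIs and Col5a1 gave 4, all in AML 1 (6.05 and 12.1 CPM).

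**Figure D5:**
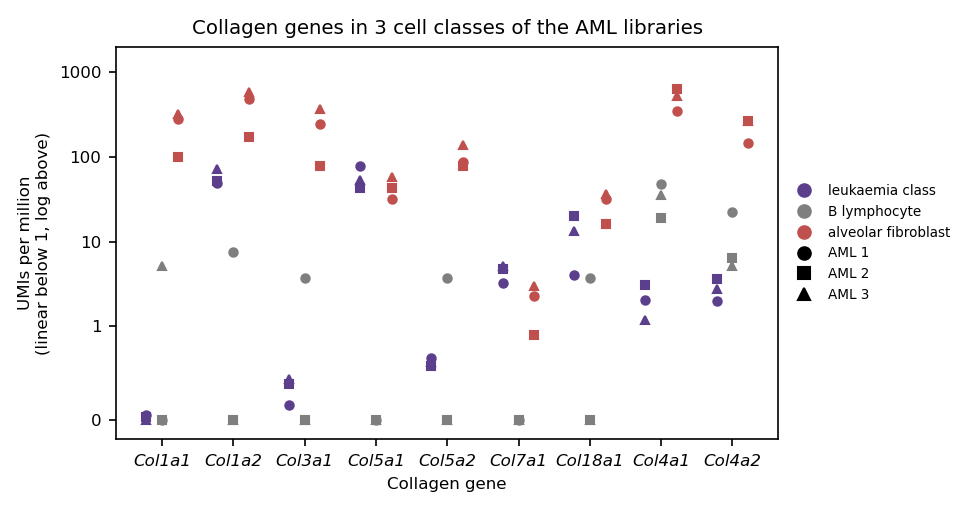
Plain CPM without TMM scaling (y axis, linear below 1 and log above) of 9 collagen genes in the leukaemia class, B lymphocytes and alveolar fibroblasts of the AML libraries, 1 point per library. Col1a2 and Col5a1 lie between 42.9 and 77.4 in the leukaemia class, while Col1a1 and Col3a1 lie below 1 there and between 77.9 and 369 in alveolar fibroblasts.

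Col4a1 and Col4a2 lie head to head, with annotated starts 21 bases apart on opposite strands of chromosome 8 (Col4a1 at 11312826 on the minus strand, Col4a2 at 11312805 on the plus strand, GRCm38). Their UMI ratio, which is not a ratio of molecules because capture can differ, was 2.19 ± 0.214 in Control and 2.02 ± 0.164 in AML general capillary cells (n = 3 each), which overlap. In aerocytes it was 1.99 ± 0.184 in Control and 1.52 ± 0.14 in AML (n = 3 each), without overlap of the groups. Nor did the groups overlap in alveolar fibroblasts (2.87 ± 0.301 against 2.27 ± 0.245) or alveolar type 2 cells (1.83 ± 0.204 against 1.51 ± 0.0409). They overlapped in every other tested class. This ratio was looked at after the values had been seen and was not tested.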

How the data were processed

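The deposited matrices hold unnormalized counts of UMIs for each gene in each barcode. The authors made them with Cell Ranger on mm10 from 10x 3′ v3.1 libraries, version 6.0.1 per the file headers and 7.0.0 per the submitters' processing notes, which disagree; whether intronic reads were counted is not given in the sources used here. Cells with at least 500 genes and at most 15% mitochondrial UMIs were kept (24640 of 28516 barcodes), and 895 doublets, the highest Scrublet scores at 0.8% per 1000 cells, were removed. Cells were clustered with scanpy 1.11.5 (2000 variable genes without collagens, 30 components, 15 neighbours, Leiden resolution 1.0) and named from fixed markers, needing 3 detected.

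UMIs were summed per library and class, and the 10 classes with at least 20 cells in each of 6 libraries were tested with edgeR 4.0.16 (TMM, filterByExpr, robust quasi-likelihood fit) in R 4.3.3. DESeq2 1.42.0 was an alternative. On simulated counts for the alveolar fibroblast comparison (6290 genes), 90% of 4-fold and 38% of 2-fold changes were called, and 3.03% of calls were false. In the smooth muscle (5479 genes) and pericyte (4899 genes) comparisons 26% of 2-fold changes were called. The simulation gave every gene of a class the same dispersion, so these shares do not cover genes with a larger spread between libraries. Summed levels carry no p. Named genes are, per tested class, every collagen past the threshold (the 10 of largest change if more) and the 3 of highest level, plus at most 4 pathway genes; Col5a1, Col5a2 and Col6a1 in alveolar fibroblasts, the chains not called and all leukaemia values were added after seeing values. The members, lists and tests were chosen with earlier results of these data known. No 2 libraries agreed within sampling noise (chi-square per degree of freedom at least 1.76). Gene positions are from GENCODE M21. Whether shared replicate numbers pair the libraries was not settled, and the main tests took the libraries as unpaired.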

Additional observations from a re-analysis of the deposited data

Results flagged for a closer look

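Col12a1 was singled out because its AML effect differed between cell classes by a test of the difference itself: the log2 change in alveolar fibroblasts minus that in general capillary cells was 2.93 (edgeR adjusted p = 0.0227). In general capillary cells Col12a1 rested on 60 UMIs over the 6 libraries, with 0 in AML 2, and in alveolar fibroblasts on 108. Over the 3 other alternatives the adjusted p lay between 0.0166 and 0.0361, and over the 6 leave-one-out fits between 0.00506 and 0.251.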

How the results depend on the processing

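No called chain reversed its direction under any alternative run, but some sums of chains, which carry no test, changed sign. Numbers of collagen chains called in alveolar fibroblasts were 13 at first, 3 at resolution 0.5 and 7 with equal cells per library. Equal cells gave 2 in alveolar type 2 cells, 0 in general capillary cells, 3 in myofibroblasts and 1 in venous cells. With doublets kept they were 0 in general capillary cells and 1 in myofibroblasts. With collagen genes allowed in clustering they were 2 in general capillary cells, 1 in pericytes and 1 in venous cells. The 1 general capillary cluster with 20 cells in every library gave 0. Without the low-count filter they were 1 in arterial cells (Col5a3), 2 in pericytes, 2 in smooth muscle and 4 in venous cells. DESeq2 gave 2 in smooth muscle and 1 in venous cells, and RLE scaling and free RNA subtraction each gave 1 in venous cells. Whether equal replicate numbers pair the libraries was not settled. No class had every pair's correlation over 0.1. The library of equal number was the best match for 5 of 6 libraries in alveolar type 2, arterial and pericyte cells. It was the best match for 0 in aerocytes, alveolar fibroblasts and venous cells. Fits with the replicate number as a block gave 3 chains called in pericytes, 2 in smooth muscle and 1 in venous cells. With 1 library left out the counts ranged from 2 to 10 in alveolar fibroblasts, 0 to 4 in alveolar type 2 cells, 0 to 3 in general capillary cells, 1 to 5 in myofibroblasts, 0 to 3 in pericytes, 0 to 3 in smooth muscle and 0 to 2 in venous cells.

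Log2 ratios of summed chains that moved by more than the replicate spread were, with doublets kept, 0.39 for network and 1.01 for other chains in general capillary cells. At resolution 0.5 they were -1.10 for other chains in alveolar fibroblasts and -1.50 in general capillary cells. With equal cells they were -1.05 for other chains in general capillary cells, -1.77 for beaded and -0.60 for network chains in myofibroblasts, and 0.37 for fibrillar and 0.94 for network chains in pericytes. With all capillary clusters, chosen after seeing the data, they were 0.37 for network and 0.0060 for other chains, and the difference of the AML effect for Col27a1 between alveolar fibroblasts and general capillary cells was -6.45 in place of -5.46 (edgeR adjusted p = 0.00209 and 0.064). Col27a1 was too low to be tested alone in general capillary cells, so its difference does not measure a capillary change. With 1 library left out, the log2 ratios of other chains ranged from -1.13 to -0.28 in aerocytes, -1.01 to -0.34 in pericytes, -0.99 to 0.18 in smooth muscle and -1.45 to 0.36 in venous cells. Those of network chains ranged from 0.17 to 0.77 in pericytes and -0.22 to 1.18 in venous cells, and in smooth muscle those of beaded chains from -1.30 to -0.18 and of fibrillar chains from -1.51 to -0.59. The lowest values came without AML 2 in aerocytes, pericytes and venous cells and without AML 3 in smooth muscle. The difference of the AML effect ranged from 2.32 to 4.14 for Col12a1 and from -5.85 to -4.98 for Col27a1.

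Of the 27 named pairs of a chain and a class that were called, 84 of 162 leave-one-out fits kept the call and 78 lost it, and 195 of 235 other fits kept it and 40 lost it. The 20 named pairs that were not called gained no call in 120 leave-one-out and 166 other fits. Resolution 0.5 gave no pericyte class. Its myofibroblast and ciliated classes had the same number of cells in every library as at first and were not fitted again. Keeping doublets gave no pericyte class with 20 cells in every library. With collagen genes in clustering no separate fit was run for smooth muscle or ciliated cells. Rare classes, with as few as 20 cells in a library, limit the power, and some chains called rested on as few as 48 UMIs over all libraries.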
